A study of Homo sapiens with 8 samples.

Results

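The 9 genes described here handle retinoic acid, the active form of vitamin A, inside the cell. They are STRA6, DHRS3, CRABP2, CYP26A1, CYP26B1, RARA, RARB, RARG and RXRA, 9 of the 63967 gene labels in the expression table. They were chosen by name, with earlier results of these data known. The row of values given to each name was selected on measured levels, because names and values drift apart along the table: the values of a gene stand from 0 to 11 rows below its name among these 9. These levels are a description of the libraries, and the p-values below are no independent support for a choice of genes that was made with results in view.

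RNA-seq was carried out in Raji, a human Burkitt lymphoma line of B cells, and in Raji-4RH, a rituximab-resistant line derived from Raji by repeated exposure to that anti-CD20 antibody. Each line was treated for 24 h with chidamide, an inhibitor of histone deacetylases (HDACs), at 3 μM or with DMSO as the vehicle, and each of the 4 groups had 2 libraries. Raji-4RH is 1 derived line, so a difference between the lines cannot be told apart from a difference between these particular cultures. Nothing in the sources says that the replicates came from separate cultures, so p-values measure the spread between these libraries, which may be technical. An exact permutation test of 2 libraries against 2 can give no p-value below 0.333, and the tests below come from limma, which shares its estimate of the spread over genes.

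Retinol enters cells partly through STRA6 and is oxidised to retinal and then to retinoic acid, while DHRS3 returns retinal to retinol. CRABP2 carries retinoic acid to the nucleus, where the receptors RARA, RARB and RARG bind it as partners of RXRA on response elements in the DNA. Without ligand the receptors hold corepressors that contain HDACs. CYP26A1 and CYP26B1 hydroxylate retinoic acid and so begin its removal, and CYP26A1 is itself a classical target of the receptors. In B cells, retinoic acid is known to affect proliferation and differentiation.

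The receptor dimers bind pairs of hexamers in the same orientation, and a spacer of 5 bases is the classical form in CYP26A1 and RARB. The 250 bases before and 50 bases after the start sites in RefSeq (GRCh38.p14), 22 windows that matched all 9 genes, were searched on both strands for 2 hexamers in the same orientation with any 5 bases between them. Each hexamer could be AGGTCA, which is the consensus, or AGTTCA as a frequent variant, or else GGGTCA and finally also GGTTCA. This pattern was found in 31 of 35116 windows of all genes (0.0883%), and among the 9 genes it was found in 1 window of CYP26A1 and in 1 window of RARB. Both are shown because these genes hold nearly the same motif and stood far apart in level in Raji-4RH, as given below. In Raji both were low, with group means of at most 0.106 FPKM. The pattern is in capitals, with 6 bases on each side, read 5′ to 3′ on the strand that holds the repeat.
CYP26A1: acaattAGTTCACCCAAAGTTCAtcttta
RARB: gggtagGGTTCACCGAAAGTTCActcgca
The CYP26A1 stretch is chr10:93073797-93073825 on the minus strand. It lies from 90 to 74 bases before the second of the start sites listed for this gene, inside the span of the gene given below. The RARB stretch is chr3:25428204-25428232 on the plus strand, from 53 to 37 bases before a start site inside the gene. The capitals agree at 15 of 17 bases. A match is a description of letters and not a binding site, and no match in the windows of the other 7 genes says only that these letters are not there. Spacers of 1 and 2 bases were searched in the same way and gave no match in the windows of the 9 genes. Over all genes they were found in 46 and 14 of 35116 windows.

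The libraries held between 13991697 and 21193441 reads. Expression is given in FPKM, the fragments of a gene scaled to its length and to the library total, which the authors deposited, and the reads behind each value were recovered from it. All 12 B cell markers examined were at or above 1 FPKM in every library, with summed levels from 1328 to 1381 FPKM in Raji DMSO, 1181 to 1193 in Raji chidamide, 886 to 928 in Raji-4RH DMSO and 734 to 778 in Raji-4RH chidamide. Markers of other cells were low and moved with treatment. The sum of 7 T and NK cell markers went from 1.39 to 1.72 FPKM in Raji DMSO to between 3.51 and 4.70 in Raji chidamide, and in Raji-4RH from 2.26 to 3.02 FPKM with DMSO to between 9.76 and 10.0 with chidamide. The sum of 6 myeloid markers was at most 1.07 FPKM in the DMSO libraries of both lines and between 6.85 and 9.76 in the chidamide libraries. Of 8 epithelial, fibroblast and endothelial markers 7 were placed, with sums of at most 2.65 FPKM. Of the T and NK cell markers, CD2 and CD3D had no read in the DMSO libraries of either line, while CD3E had 7 reads in Raji DMSO, 83 in Raji-4RH DMSO and 332 after chidamide in that line, and NKG7 was at or above 1 FPKM in every group mean. The part of these shifts in the results below was not tested. In bulk RNA, fewer cells that express a gene and less of its RNA per cell cannot be told apart.

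The test took the 10710 genes that reached 1 FPKM in 2 or more libraries, and a gene was called at an adjusted p-value under 0.05 over all of them. Of the 9 genes, CYP26A1, CRABP2, RARA and RARG passed this filter, and STRA6, DHRS3, CYP26B1, RARB and RXRA did not. CYP26A1 passed only through the Raji-4RH libraries. Chidamide changed a large part of all tested genes: 74.9% were called in Raji-4RH (43.3% higher and 31.6% lower) and 60.0% in Raji (31.5% higher and 28.5% lower). In Raji-4RH, 3 of the 4 tested genes were called, RARA and RARG higher and CYP26A1 lower. In Raji, 2 of the 4 were called, RARA and RARG, both higher. With such shares over all genes, these counts are no result about this group of genes. The median log2 fold change over the 4 genes was 0.04 in Raji-4RH and 0.54 in Raji, beside medians over all tested genes of 0.093 and 0.017. Under quantile normalization the median of all genes in Raji-4RH moved to -0.022 and the called genes split into 3718 higher and 4057 lower, against 4642 and 3380 without it.

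CYP26A1 was expressed in Raji-4RH and almost silent in Raji. This gene of a cytochrome P450 that degrades retinoic acid lies on chromosome 10 from 93073475 to 93077890, plus strand (GENCODE v29, GRCh38). Its levels were 43.7 and 43.3 FPKM in the Raji-4RH DMSO libraries, from 2435 and 2727 reads, and 9.04 and 7.11 FPKM in the Raji-4RH chidamide libraries, from 376 and 389 reads. In Raji, the DMSO libraries held 0 reads and 1 read, or 0 and 0.0167 FPKM, and the chidamide libraries held 9 and 4 reads, or 0.147 and 0.0646 FPKM. All 4 Raji-4RH libraries were above all 4 Raji libraries, and within Raji-4RH both chidamide libraries were below both DMSO libraries.

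Between the untreated lines, the read rate of CYP26A1 was 5155 times higher in Raji-4RH, with a 95% counting interval from 925 to 203639 that rests on the single read in Raji. On the log2(FPKM + 1) scale, which understates the change of a gene near 0, the difference was 5.46 (SE 0.097, adjusted p = 1.6e-09). That was rank 8 from the top of 10710 genes. The difference was 8.66 with a pseudocount of 0.1 and 11.54 with limma voom. CYP26A1 passed the filter only through the Raji-4RH libraries, where it is high. The p-values and the rank of its line comparisons, here and under chidamide, are therefore a description and no support. Across all genes 73.6% were called in this comparison, 41.2% higher and 32.4% lower in Raji-4RH. Of the 4 tested genes, CYP26A1 and CRABP2 were called, both higher in Raji-4RH.

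Chidamide lowered CYP26A1 in Raji-4RH to 0.183 of its DMSO read rate (counting interval 0.169 to 0.197). The log2 fold change was -2.30 (SE 0.097, adjusted p = 2.3e-07), and only 14 of the tested genes had a lower one in this comparison. After treatment the read rate was still 75.2 times that of Raji with chidamide (counting interval 43.7 to 142), a log2 difference of 3.03 (SE 0.097, adjusted p = 2.5e-08) that was 5.33 with a pseudocount of 0.1 and 6.22 with limma voom. In Raji, chidamide went with 13 reads against 1, a ratio of 12.5 (counting interval 1.88 to 532). The log2(FPKM + 1) difference there was 0.13 (SE 0.097, adjusted p = 0.272), with adjusted p-values from 0.00485 to 0.645 over the alternatives. It passed the threshold at 0.90 with a pseudocount of 0.1, at 2.86 with limma voom on the reads and at 0.13 in a fit of the Raji libraries alone (adjusted p = 0.0489). The chidamide effect differed between the lines by -2.43 (SE 0.137, adjusted p = 9.6e-06), with 48.8% of all genes called in this test. It was -3.33 with a pseudocount of 0.1 and -5.31 with limma voom. The 2 Raji DMSO libraries left almost no level from which a fall could be measured. CYP26A1 entered the test of this difference only through Raji-4RH, so its p-value there is also a description and no support. Of the exonic bases of CYP26A1, 750 (25.2%) are shared with AL358613.3 on the same strand, and how reads in shared exons were assigned is not given in the sources used here.

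CYP26B1, the other CYP26 enzyme among the 9 genes, was not expressed at a level that could be compared. It lies on chromosome 2 from 72129238 to 72148038, minus strand. The 8 libraries together held 12 reads, at most 5 in 1 library, and its highest level was 0.0484 FPKM in a Raji chidamide library. The sums per group were 1 read in Raji DMSO, 6 in Raji chidamide and, in Raji-4RH, 1 with DMSO and 4 with chidamide. The counting interval of the chidamide ratio ran from 0.488 to 243 in Raji-4RH and from 0.701 to 266 in Raji, so a difference was not detectable at this depth.

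**Figure D1:**
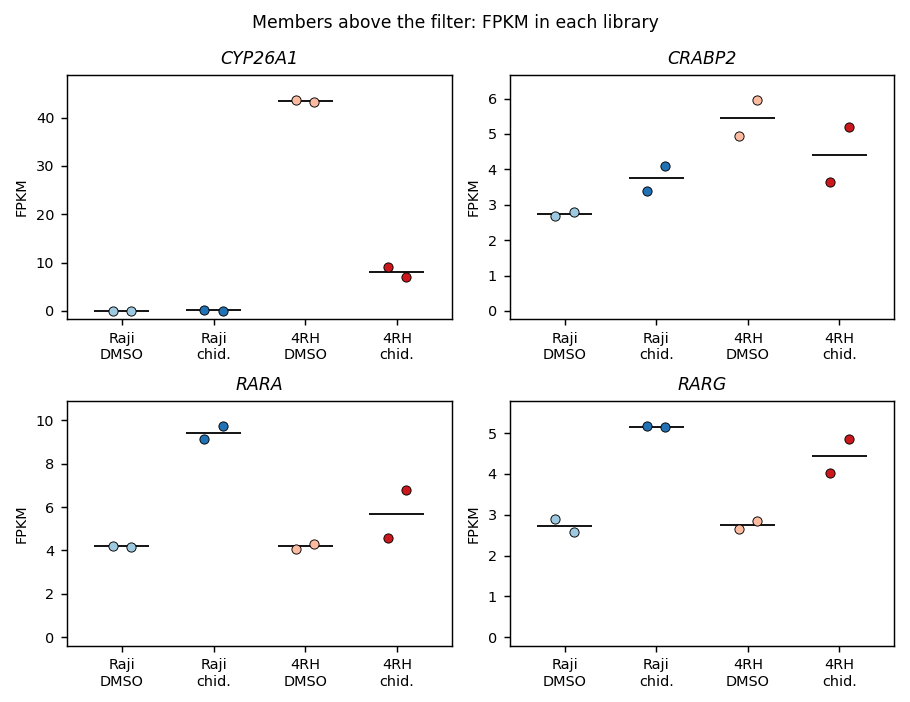
FPKM of CYP26A1, CRABP2, RARA and RARG (vertical axes, each from 0) in each library of the 4 groups (horizontal axes; 4RH is Raji-4RH, chid. is chidamide). Points are the 2 libraries of a group and lines are their means. CYP26A1 was at 43.7 and 43.3 FPKM in Raji-4RH DMSO and at most 0.147 in the 4 Raji libraries, and RARA and RARG were highest in Raji chidamide.

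CRABP2, the binding protein that delivers retinoic acid to the receptors, was present in every library. It lies on chromosome 1 from 156699606 to 156705816, minus strand. Its levels were 2.67 and 2.80 FPKM in Raji DMSO, 3.40 and 4.10 in Raji chidamide, 4.94 and 5.96 in Raji-4RH DMSO and 3.64 and 5.18 in Raji-4RH chidamide. The untreated lines did not overlap, and Raji-4RH was higher. The treated lines overlapped, as did the treated and untreated Raji-4RH libraries.

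In DMSO, CRABP2 was 2.01 times as high in Raji-4RH as in Raji (counting interval 1.60 to 2.52), a log2 difference of 0.79 (SE 0.139, adjusted p = 9.6e-04). This call held in all 19 alternatives that used the placed rows, with values from 0.62 to 0.99. The chidamide effect was 0.34 in Raji (SE 0.139, interval 0.02 to 0.66, adjusted p = 0.0624) and -0.26 in Raji-4RH (SE 0.139, interval -0.58 to 0.06, adjusted p = 0.116). Neither passed the threshold, and each did in 4 of 18 alternatives. In Raji these included the fits without either Raji-4RH chidamide library (0.34, adjusted p = 0.0134 for both), and in Raji-4RH the fit without Raji-4RH chidamide replicate 2 (-0.47, adjusted p = 0.00648). Without replicate 1 of that group the value in Raji-4RH was -0.06 (adjusted p = 0.677), and without Raji-4RH DMSO replicate 2 it was -0.15 (adjusted p = 0.457). The difference between these effects was -0.61 (SE 0.197, adjusted p = 0.0331). It was not called in 8 of 17 alternatives, where adjusted p-values reached 0.118, and 5 of these left out a single library: either Raji DMSO library (-0.58 and -0.63), Raji chidamide replicate 2 (-0.50), Raji-4RH DMSO replicate 2 (-0.49) or Raji-4RH chidamide replicate 1 (-0.40). Under chidamide the lines differed by 0.18 (SE 0.139, interval -0.14 to 0.50, adjusted p = 0.269). In that comparison 79.3% of all genes were called, and of the 4 tested genes CYP26A1 was called higher and RARA lower in Raji-4RH. Without Raji-4RH chidamide replicate 1 the CRABP2 difference was 0.38 (adjusted p = 0.0162), and without replicate 2 it was -0.03.

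The receptors RARA and RARG were nearly equal in the untreated lines and rose with chidamide in Raji. RARA, the receptor that most blood cells use, lies on chromosome 17 from 40309192 to 40357643, plus strand. Its levels were 4.21 and 4.17 FPKM in Raji DMSO, 9.12 and 9.73 in Raji chidamide, 4.07 and 4.31 in Raji-4RH DMSO and 4.56 and 6.77 in Raji-4RH chidamide. Both Raji chidamide libraries were above every other library. The Raji-4RH chidamide libraries lay apart from each other, the lower one close to DMSO.

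In Raji, chidamide raised RARA 2.25-fold (counting interval 2.07 to 2.45), a log2 fold change of 1.01 (SE 0.132, adjusted p = 2.7e-04). In Raji-4RH the ratio was 1.39 (counting interval 1.26 to 1.53) and the log2 fold change 0.34 (SE 0.132, adjusted p = 0.0433). That call was lost in 11 of 18 alternatives, among them quantile normalization (0.18, adjusted p = 0.296) and the fit without Raji-4RH chidamide replicate 2 (0.10, adjusted p = 0.225), while without replicate 1 of that group it was 0.58 (adjusted p = 1.1e-04). It was also lost without any of 6 other libraries, where the value stayed from 0.31 to 0.38. The chidamide effect was smaller in Raji-4RH by 0.66 on the log2 scale (difference -0.66, SE 0.187, adjusted p = 0.0190). Over the alternatives this difference ran from -0.91, without Raji-4RH chidamide replicate 2, to -0.42, without replicate 1 of that group. Both of these passed the threshold, and the call was lost in 4 of 17, all of which left out 1 library. They were either Raji DMSO library (-0.67 and -0.66), Raji chidamide replicate 2 (-0.62) and Raji-4RH DMSO replicate 2 (-0.63). The untreated lines differed by 0.00 (SE 0.132, interval -0.30 to 0.30, adjusted p = 1.00), and the treated lines by -0.66 (SE 0.132, adjusted p = 0.00162). Of the exonic bases of RARA, 11.8% are shared with RARA-AS1 and 6.15% with AC080112.3 on the opposite strand, and a strand setting is not given in the sources used here, so reads of these genes cannot be told apart there.

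RARG, a receptor best known from skin, lies on chromosome 12 from 53210567 to 53232980, minus strand. Its levels were 2.88 and 2.57 FPKM in Raji DMSO, 5.17 and 5.14 in Raji chidamide, 2.66 and 2.85 in Raji-4RH DMSO and 4.02 and 4.85 in Raji-4RH chidamide. In both lines the chidamide libraries were above the DMSO libraries, with no overlap. The ratio was 1.89 in Raji (counting interval 1.71 to 2.10) and 1.62 in Raji-4RH (counting interval 1.45 to 1.82). The log2 fold changes were 0.73 (SE 0.084, adjusted p = 1.3e-04) and 0.53 (SE 0.084, adjusted p = 4.7e-04). Both calls held in all 18 alternatives, with values from 0.55 to 0.92 in Raji and from 0.28 to 0.69 in Raji-4RH.

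The chidamide effects on RARG differed between the lines by -0.20 (SE 0.118, interval -0.47 to 0.07, adjusted p = 0.199). Without Raji-4RH chidamide replicate 2 this was -0.31 (adjusted p = 0.0323). The untreated lines differed by 0.01 (SE 0.084, interval -0.18 to 0.20, adjusted p = 0.894). The treated lines differed by -0.18 (SE 0.084, interval -0.37 to 0.01, adjusted p = 0.0716), and this difference was called under quantile normalization (-0.38), with median-centred libraries (-0.26) and without Raji-4RH chidamide replicate 2 (-0.30).

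**Figure D2:**
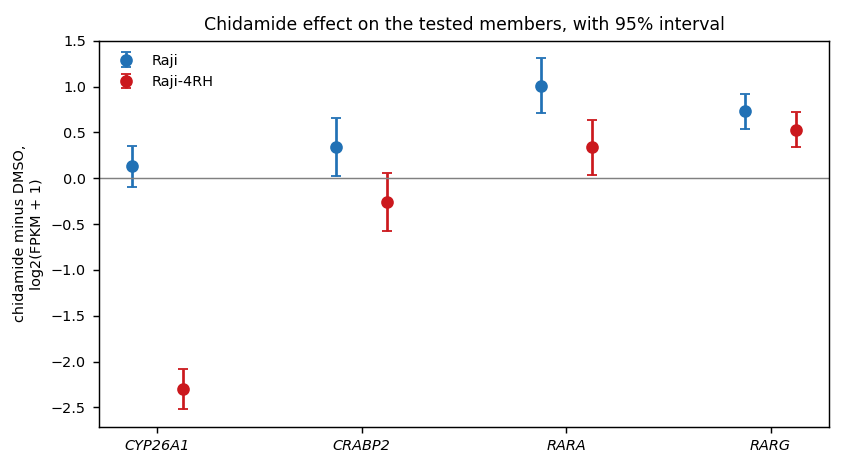
Chidamide minus DMSO on the log2(FPKM + 1) scale (vertical axis) for CYP26A1, CRABP2, RARA and RARG (horizontal axis) in Raji (blue) and Raji-4RH (red). Points are limma estimates and bars their 95% intervals. CYP26A1 stands at -2.30 in Raji-4RH and 0.13 in Raji, and RARA and RARG lie above 0 in both lines.

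RARB and RXRA were low in all libraries. RARB, on chromosome 3 from 25174332 to 25597932, plus strand, had 45 reads in the 8 libraries. There were 3 and 2 reads in Raji DMSO, 5 and 7 in Raji chidamide, 4 and 8 in Raji-4RH DMSO and 5 and 11 in Raji-4RH chidamide, and the highest level was 0.162 FPKM. The ratio of chidamide to DMSO was 2.31 in Raji (counting interval 0.758 to 8.37) and 1.64 in Raji-4RH (counting interval 0.729 to 3.81), both of which include no change.

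RXRA is the shared dimer partner of the retinoic acid receptors and of several other nuclear receptors. It lies on chromosome 9 from 134317098 to 134440585, plus strand. It held 15 and 14 reads in Raji DMSO, 12 and 6 in Raji chidamide, 9 and 2 in Raji-4RH DMSO and 82 and 86 in Raji-4RH chidamide. The levels in Raji-4RH chidamide were 0.542 and 0.432 FPKM, and in every other library at most 0.0702 FPKM. Both Raji-4RH chidamide libraries were thus above the other 6, at a level that stayed under the filter.

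The read rate of RXRA was 18.8 times higher with chidamide in Raji-4RH (counting interval 10.3 to 38.4). It was 54.9 without Raji-4RH DMSO replicate 1 and 10.8 without Raji-4RH DMSO replicate 2. The ratio in Raji was 0.598 (counting interval 0.313 to 1.11). In an alternative added after the data were seen, limma voom on the recovered reads of the 12993 genes with at least 10 reads in at least 2 libraries, the log2 fold change was 4.45 in Raji-4RH (SE 0.56, adjusted p = 1.7e-05) and -0.79 in Raji (SE 0.57, adjusted p = 0.254). That fit called 75.0% of all genes in Raji-4RH and 58.6% in Raji. The effects differed by 5.24 (SE 0.79, adjusted p = 3.6e-04), with 41.1% of genes called. Between the untreated lines RXRA had 11 reads in Raji-4RH and 29 in Raji, a log2 difference of -1.66 (SE 0.64, adjusted p = 0.0358, with 70.8% of genes called), and this was not called in the fit of all genes with any read (-0.06 on the log2(FPKM + 1) scale, adjusted p = 0.301). Between the treated lines the difference was 3.58 (SE 0.47, adjusted p = 2.1e-05, with 78.9% of genes called). RXRA is the gene of the 9 whose values stood farthest from its label, 11 rows below. PPP1CC, 14 labels above, and KPNA4, 16 labels below, had from 52.5 to 63 and from 10.5 to 12.3 FPKM at that distance and at most 0.0306 on their own rows. These neighbours were picked after their values were seen. The gene length in the file, 10814 bases, is also shorter than the 11083 joined exonic bases of GENCODE v29, while the other 8 lengths agree.

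STRA6, the membrane receptor that takes up retinol from its carrier in plasma, showed reads mostly in Raji-4RH with chidamide. It lies on chromosome 15 from 74179466 to 74212267, minus strand. It had 1 read in each Raji DMSO library, 2 and 6 in Raji chidamide, 0 in both Raji-4RH DMSO libraries and 18 and 27 with chidamide in that line. The last values are 0.167 and 0.191 FPKM. Against a floor of 3 reads over the Raji-4RH DMSO group, the read rate was at least 18.5-fold higher with chidamide. In Raji the ratio was 3.85, with a counting interval from 0.769 to 37.2. Only the Raji-4RH chidamide libraries carried STRA6 over 10 reads, so no test of it is given. On the opposite strand CCDC33 shares 7.02% of the exonic bases of STRA6.

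DHRS3, a reductase of retinal that lies on chromosome 1 from 12567910 to 12617731, minus strand, had 21 reads in the 8 libraries. It had 3 and 0 reads in Raji DMSO, 2 and 0 in Raji chidamide, 6 and 3 in Raji-4RH DMSO and 4 and 3 in Raji-4RH chidamide. The chidamide ratio in Raji-4RH was 0.959, with a counting interval from 0.303 to 2.89. All 4 Raji-4RH libraries held at least 3 reads, which is at the level of the highest Raji library, and the ratio of the untreated lines, 3.00, had a counting interval from 0.748 to 17.2.

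**Figure D3:**
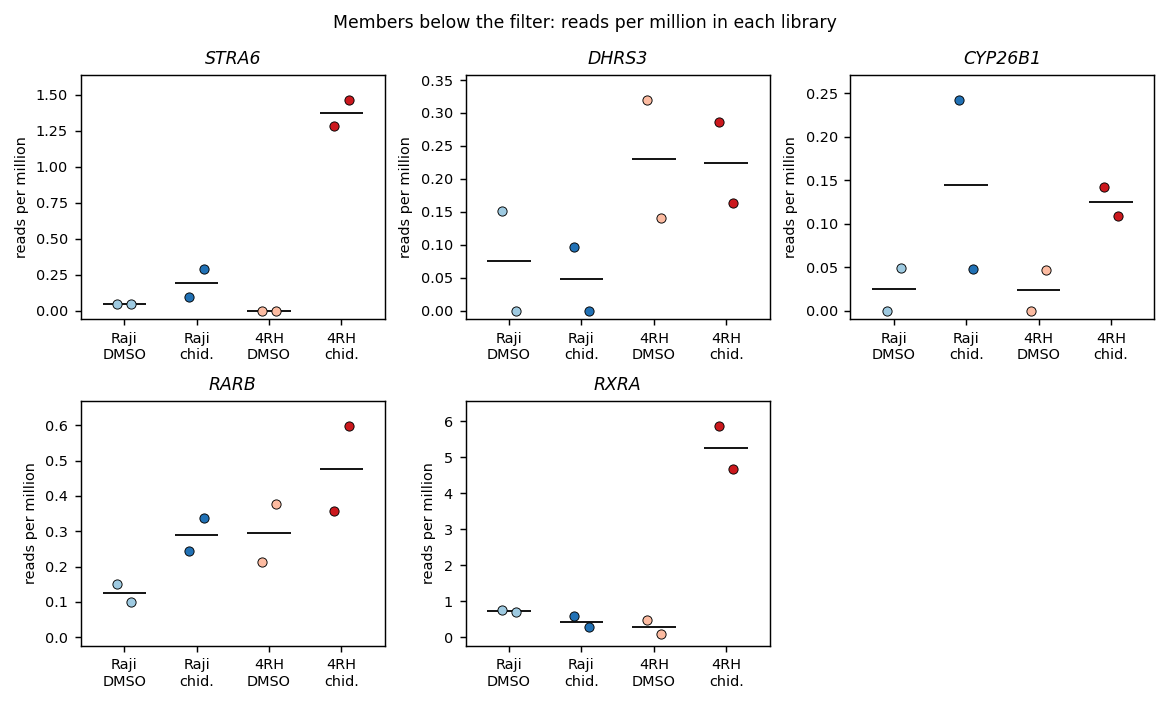
Reads scaled to the library total, RPM (vertical axes, each from 0), of STRA6, DHRS3, CYP26B1, RARB and RXRA in each library of the 4 groups (horizontal axes; 4RH is Raji-4RH, chid. is chidamide). Points are libraries and lines are group means. STRA6 and RXRA are highest in both Raji-4RH chidamide libraries, with 18 and 27 and with 82 and 86 reads, and the other 3 genes stay at or under 11 reads in any library.

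In FPKM, which is per gene length, the order of the receptors was RARA above RARG in each library. Both were far above RXRA and RARB. RXRB could not be placed, so its level is not known here. For RARA, the order of the groups was Raji chidamide, Raji-4RH chidamide and then the DMSO groups, which differed by less than their spread. RARG had the same order, with the chidamide groups not told apart at the threshold. CRABP2 ran from Raji-4RH DMSO over Raji-4RH chidamide and Raji chidamide to Raji DMSO, and no neighbours in that order passed the threshold. For CYP26A1 the order was Raji-4RH DMSO, Raji-4RH chidamide, Raji chidamide and Raji DMSO, and the last pair was not told apart.

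Other genes of the retinoid pathway were counted from a list of 41, of which 39 could be placed in the table and 21 passed the filter. In Raji-4RH, chidamide went with 10 higher, 6 lower and 5 not called, and a median log2 fold change of 0.02. In Raji it went with 9 higher, 6 lower and 6 not called, and a median of 0.03. These shares lie near the background given above. Between the untreated lines, 11 were higher and 7 lower in Raji-4RH, and 3 were not called, beside 41.2% higher and 32.4% lower over all genes. The test of the difference between the chidamide effects called 10 of the 21, beside 48.8% of all genes. These counts are no result about the list.

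None of the 6 genes of uptake and storage passed the filter, and LRAT, which esterifies retinol, had no read in any library. Of 5 tested genes that interconvert retinol and retinal, 2 fell in Raji-4RH and 3 in Raji, and none rose, beside 31.6% and 28.5% of all genes called lower. RDH10, a retinol dehydrogenase, had changes of -0.06 in Raji-4RH (adjusted p = 0.477) and -0.02 in Raji (adjusted p = 0.853). DHRS4, a carbonyl reductase, fell from 6.57 and 6.55 to 5.12 and 4.12 FPKM in Raji-4RH (log2 fold change -0.43, SE 0.101, adjusted p = 0.00430), and in Raji by 0.44 (adjusted p = 0.00579). DHRS4 has near-identical copies that could share its reads. RDH11, a retinal reductase, fell in Raji-4RH from 8.80 and 9.20 to 8.37 and 7.14 FPKM (log2 fold change -0.20, adjusted p = 0.0347) and had a change of -0.06 in Raji (adjusted p = 0.479). ADH5, an alcohol dehydrogenase of broad use, fell in Raji by 0.42 (adjusted p = 4.5e-04) and had a change of -0.14 in Raji-4RH (adjusted p = 0.0664). RDH13 had changes of -0.57 in Raji (adjusted p = 1.0e-04) and -0.03 in Raji-4RH (adjusted p = 0.646). The name RDH13 stands on 10 rows, of which 1 was placed.

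ALDH1A1, which oxidises retinal to retinoic acid, was near 0 in both untreated lines and was carried over the filter by the chidamide libraries. In Raji-4RH it was at 0.0749 and 0.0994 FPKM with DMSO and at 5.54 and 5.34 with chidamide, a log2 fold change of 2.57 (SE 0.058). In Raji it was at 0.0533 and 0.105 FPKM with DMSO and at 2.66 and 2.65 with chidamide, a log2 fold change of 1.76 (SE 0.058). The rise was larger in Raji-4RH by 0.81 (SE 0.081, adjusted p = 1.3e-04). ALDH1A1 was tested only because of the chidamide libraries, where it is high, so this p-value is a description and no support. The synthetic enzymes ALDH1A2 and ALDH1A3 did not pass the filter.

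FABP5, a fatty acid binding protein that can carry retinoic acid, was the most abundant gene of the list named here in Raji. It fell in Raji-4RH from 109 and 108 to 55.8 and 48.5 FPKM (log2 fold change -1.05, SE 0.068, adjusted p = 2.1e-06) and in Raji by 0.61 (SE 0.068, adjusted p = 1.1e-04). The difference was -0.44 (SE 0.096, adjusted p = 0.00606). FABP5 has processed copies that could share its reads. CRABP1 had no read in any library.

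Of 8 tested corepressors and coactivators, 4 rose and 2 fell in Raji-4RH, and 3 rose and 2 fell in Raji, beside 43.3% higher and 31.6% lower over all genes in Raji-4RH and 31.5% and 28.5% in Raji. NCOA3, a coactivator of nuclear receptors, rose in Raji-4RH from 60.9 and 57.1 to 122 and 126 FPKM (log2 fold change 1.06, SE 0.054, adjusted p = 5.8e-07) and in Raji by a log2 fold change of 0.72 (adjusted p = 1.3e-05). TBL1XR1, a part of nuclear receptor corepressor complexes, rose by 0.62 in Raji-4RH (adjusted p = 1.3e-05) and 0.67 in Raji (adjusted p = 2.1e-05). MED1, a Mediator subunit that contacts nuclear receptors, changed by -0.54 in Raji-4RH (adjusted p = 4.1e-05) and -0.21 in Raji (adjusted p = 0.0115). The corepressor NCOR1 was not called in either line, with log2 fold changes of 0.02 in Raji-4RH (adjusted p = 0.717) and 0.03 in Raji (adjusted p = 0.675).

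Of 6 tested genes that are known as targets of retinoic acid, 5 rose and 1 fell in Raji-4RH, and 5 rose and none fell in Raji, beside 43.3% higher and 31.6% lower over all genes in Raji-4RH and 31.5% and 28.5% in Raji. TGM2 and MEIS1 passed the filter only through chidamide libraries, where they are high. RARRES3 reached 1 FPKM in only 1 DMSO library, of Raji, so it too needed chidamide libraries to pass. These counts are thus no support for a direction of the list, and the p-values of RARRES3 below are none for its rise. RARRES3, a growth regulator named for its response to retinoids, went from 0.0821 and 0.0363 to 2.31 and 2.26 FPKM in Raji-4RH (log2 fold change 1.63, SE 0.128, adjusted p = 6.5e-06) and from 0.975 and 1.64 to 6.54 and 5.54 in Raji (log2 fold change 1.62, SE 0.128, adjusted p = 1.7e-05). CD38, a surface enzyme of B cells, rose in Raji-4RH from 4.09 and 4.06 to 14.3 and 14.9 FPKM (log2 fold change 1.62, SE 0.053, adjusted p = 8.2e-08). In Raji it was at 32.2 and 33.8 FPKM with DMSO and 33.0 and 31.6 with chidamide (log2 fold change -0.03, adjusted p = 0.668). TGM2, a transglutaminase, was at 0.338 and 0.300 FPKM in Raji-4RH with DMSO and at 1.04 and 1.22 with chidamide. The last pair of libraries alone carried it over the filter. The gene that fell in Raji-4RH was MEIS2, by 0.22 (adjusted p = 0.0289). In Raji it rose by 0.24 (adjusted p = 0.0255), from a group mean of 0.298 to 0.534 FPKM. MEIS2 passed the filter only through Raji-4RH libraries. The 5 that rose were thus not the same genes in both lines, with CD38 only in Raji-4RH and MEIS2 only in Raji. CYP26A1, itself a classical target, fell in Raji-4RH. These genes also answer to other regulators, and retinoic acid was not measured.

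**Figure D4:**
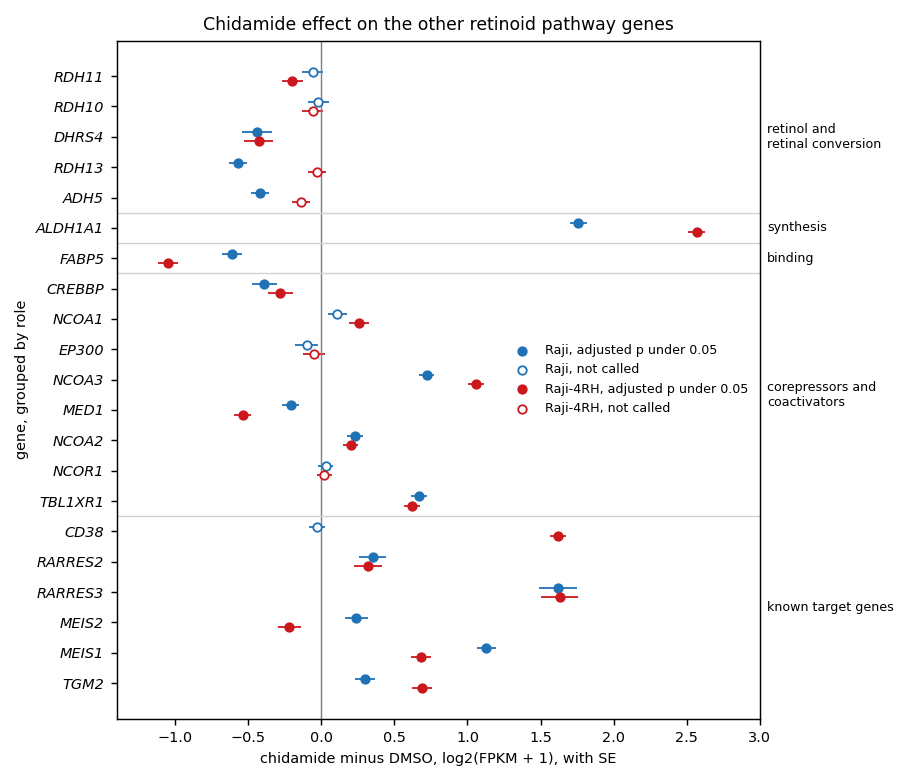
Chidamide minus DMSO on the log2(FPKM + 1) scale (horizontal axis) for the 21 tested genes of the retinoid pathway outside the 9 (vertical axis, grouped by role) in Raji (blue) and Raji-4RH (red). Bars are standard errors and filled points were called at an adjusted p under 0.05. ALDH1A1 has the largest value in both lines, 2.57 and 1.76, and 5 of the 6 target genes were called higher in each line, beside 43.3% (Raji-4RH) and 31.5% (Raji) of all tested genes. ALDH1A1, TGM2 and MEIS1 passed the filter only through chidamide libraries. RARRES3 reached 1 FPKM in only 1 DMSO library and also needed chidamide libraries to pass. CD38 was called higher only in Raji-4RH and MEIS2 only in Raji.

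For each tested gene, the 3 genes with the most similar pattern over the 8 libraries were found among 9868 tested genes whose mean reached 1 FPKM, by Pearson's r of log2(FPKM + 1). The libraries share their groups, so r mostly reflects the 4 group means and is a description. For CYP26A1 they were FAM111B (r = 0.999), EMB (r = 0.998) and TRIP6 (r = 0.997), and 382 genes had an r of at least 0.95. For RARG they were SMAD3 (r = 0.993), NLRP4 (r = 0.991) and ITGAM (r = 0.990), and 124 genes reached 0.95. For RARA they were VSIG10L (r = 0.987), FAM117B (r = 0.986) and VASP (r = 0.983), with 27 genes at 0.95 or more. For CRABP2 they were PREP (r = 0.974), CDK5R1 (r = 0.973) and KDM6B (r = 0.969), with 7 genes at 0.95 or more.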

How the data were processed

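Total RNA of 8 libraries was sequenced after preparation with the NEBNext Ultra kit on an Illumina instrument. The submitters' processing notes name HISAT2 2.0.5, SAMtools 1.7, HTSeq 0.9.1, DESeq2 1.22.2 and GRCh38; the annotation and strand setting are not given in the sources used here. For each gene, the authors deposited its length and 8 FPKM values. Multiplied by that length and the library total, 100% of non-zero values were whole reads (tolerance 0.01 reads).

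The table has 63967 labels but 63305 rows of values of its own, since the last 662 rows repeat the first 662. Fixed row distances, found from levels, placed 18143 genes (28.4% of labels) holding 90.7% to 93.2% of the reads, and FPKM was recomputed with each gene's own length. The genes, lists, the rule for named genes and the tests were chosen with earlier results of these data known. All 9 genes were named. Of the pathway genes, values are given for at most 3 per role. These were called in either line and had a mean of at least 1 FPKM in any group. They were taken by size of the change in Raji-4RH. A few more (NCOR1, RDH10, RDH13, MEIS1, MEIS2 and genes without reads) were named after their values were seen. Some genes of the pathway list are not reported here.

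Differences were tested with limma 3.58.1 in R 4.3.3 (eBayes with a mean-variance trend) on log2(FPKM + 1), with the 8 libraries in 1 fit and Benjamini-Hochberg adjustment over the 10710 genes that reached 1 FPKM in 2 or more libraries. The fit was tested on simulated data. Intervals of log2 values are 95% intervals of the fit. Read ratios carry exact 95% intervals that cover counting error only, and reads without molecular identifiers are not independent molecules. Alternatives were quantile normalization, median-centred libraries, a pseudocount of 0.1, genes without a filter, genes whose mean reached 1 FPKM, limma without trend, only the libraries compared, a replicate block, each library left out, rows as deposited and limma voom on recovered reads. Limma voom with at least 10 reads in at least 2 libraries, a crossed pairing and read ratios with a library left out were added after the data were seen. For single genes, the counts and ranges over alternatives leave out the rows as deposited. Motifs and figures used Python 3.11.15 with pandas 2.3.3, numpy 2.4.6, scipy 1.17.1 and matplotlib 3.10.9.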

Additional observations from a re-analysis of the deposited data

Results flagged for a closer look

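The chidamide effect differed between the lines, by the test of the difference itself, for 3 of the 4 tested genes, beside 48.8% of all genes tested. For CYP26A1 the difference (Raji-4RH minus Raji, log2 scale) was -2.43, with effects of -2.30 in Raji-4RH and 0.13 in Raji. It was -3.33 with a pseudocount of 0.1 and -5.31 with limma voom. The Raji DMSO libraries held 0 reads and 1 read of CYP26A1, almost no level from which a fall could be measured. CYP26A1 passed the filter only through Raji-4RH, so its call here is a description and no support. For RARA the difference was -0.66, with effects of 0.34 and 1.01, and the call held in 13 of 17 alternatives. For CRABP2 it was -0.61, with effects of -0.26 and 0.34, and the call held in 9 of 17. Groups of 2 libraries were too small to look for a library far from the others.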

How the results depend on the processing

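The number of genes called in each of the 5 comparisons stayed within 1.5 times under all alternatives run. With a replicate block it was 7886 of 10710 in Raji-4RH and 6183 in Raji for chidamide, 4915 for the difference of effects, 7748 for the untreated and 8397 for the treated lines. The labels do not say what the replicate numbers share: differences between replicates correlated from -0.28 to 0.17 between groups, and the block made the chidamide effects on CRABP2 pass the threshold in Raji-4RH (-0.26, adjusted p = 0.0273) and in Raji (0.34, adjusted p = 0.0120). A crossed pairing of the untreated lines, which correlated at -0.16, called 8542 genes against 7882. Some signs turned, most where the value was near 0. RARA between the untreated lines was -0.09 with quantile normalization, -0.04 with median-centred libraries and from -0.03 to 0.03 with 1 library left out. RARG was -0.12, -0.03 and from -0.05 to 0.08 there. CRABP2 between the treated lines was -0.03 with quantile normalization and from -0.03 to 0.38 with 1 library left out. With the rows as deposited, where the label RARA or CRABP2 meets the values of another gene, RARA turned to -0.02 for chidamide in Raji-4RH and 0.50 between the treated lines, and CRABP2 to -0.20 for chidamide in Raji, -0.23 between the untreated and -0.41 between the treated lines. Depth limits CYP26B1, DHRS3 and RARB, with 12, 21 and 45 reads in all.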
